A study of Mus musculus with 4 samples.

Results

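Lhx2, Six3, Emx2, Eomes, Tbr1, Dlx1, Dlx2, Nkx2-1 and Gsx2 are 9 transcription factors that pattern the dorsal and ventral forebrain, chosen by name from the 55602 genes of the count table. They were followed in JB1 cells, male hybrid mouse embryonic stem cells whose maternal chromosomes are JF1 and whose paternal ones are C57BL/6 (B6). Wild-type JB1 cells, from here on wild-type, were compared with a JB1-derived Zfp57-/- line, which is a single line and is called mutant below, with 2 replicates each. All 4 cultures were differentiated in defined medium, received 1 µM cyclopamine from day 2 to day 10, and were harvested at day 12 as neural precursor cells. Cyclopamine blocks Smoothened and thereby hedgehog signalling, and was given to wild-type and mutant cells alike, so that neither genotype has an untreated control. Stranded total RNA-seq gave a count of fragments per gene in bulk and, where strain variants allowed, for the JF1 and B6 alleles.

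The embryonic forebrain is divided by morphogens into a dorsal part, the pallium, which forms the cortex, and a ventral part, the subpallium, which forms the basal ganglia and cortical interneurons. Hedgehog signalling promotes ventral fates and induces Nkx2-1, whereas Wnt and Bmp signals from the dorsal midline promote pallial fates. Lhx2 and Six3 act early, when the forebrain and eye fields are set up. Emx2 is a patterning factor of pallial progenitors, and Eomes (also called Tbr2) and Tbr1 mark successive steps from intermediate progenitors to cortical glutamatergic neurons. Gsx2, Dlx1 and Dlx2 act in ventral progenitors and the GABAergic lineage. Several of these factors have other sites of expression, such as Eomes in the primitive streak, the endoderm and the trophoblast.

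The bulk libraries held 7663520 to 10337082 counts, so that 3 counts corresponded to 0.290 to 0.391 CPM (counts scaled to library size), and allelic reads made up 36.1% to 37.0% of the bulk counts. Zfp57 itself had 392 and 249 wild-type and 158 and 144 mutant counts, a log2 fold change of -1.19 (SE 0.32, edgeR adjusted p = 0.0225). Its JF1 reads were 136 and 99 in wild-type and 0 and 0 in mutant libraries, while its B6 reads were 81 and 49 in wild-type and 82 and 76 in mutant libraries. The position of the deletion was not analysed here, so these reads are no full check of the genotype labels. The labelled cell type was met in the wild-type libraries by the progenitor genes Nes (2876 and 3839 counts) and Sox1 (297 and 468 counts) and by Map2 (5540 and 6627 counts), a neuronal gene. In mutant libraries, Nes had 1773 and 1906 counts, Sox1 68 and 32 and Map2 376 and 291, and Pou5f1, a defining gene of pluripotent cells, had 2747 and 2286 counts against 1 and 6 in wild-type. In bulk RNA, fewer cells of a type and less RNA per cell cannot be told apart. The cortical gene Emx1, a defining gene of the dorsal telencephalon, had 3 and 7 wild-type and 4 and 2 mutant counts, so that it had at most 7 counts in any library.

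Of the 9 factors, 6 had more than 8 counts over the 4 libraries and could be tested, and Six3, Nkx2-1 and Gsx2 had at most 3 counts in every library. Lhx2 was lower and Eomes higher in Zfp57-/- cells, and Emx2, Tbr1, Dlx1 and Dlx2 did not pass the test (edgeR quasi-likelihood test, Benjamini-Hochberg adjusted p under 0.05). The 6 tested factors had a median log2 fold change of -1.68, beside -0.01 over all 19995 genes tested. Of all genes tested, 27.6% were called, 14.6% lower and 13% higher, so that 2 of 6 called factors is a share near that of genes at large. With Actb as the scale, 2994 genes were lower and 486 higher, beside 2915 and 2607 as reported, and the calls of the factors were the same. The 9 genes were chosen with earlier results of the same data known.

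**Figure D1:**
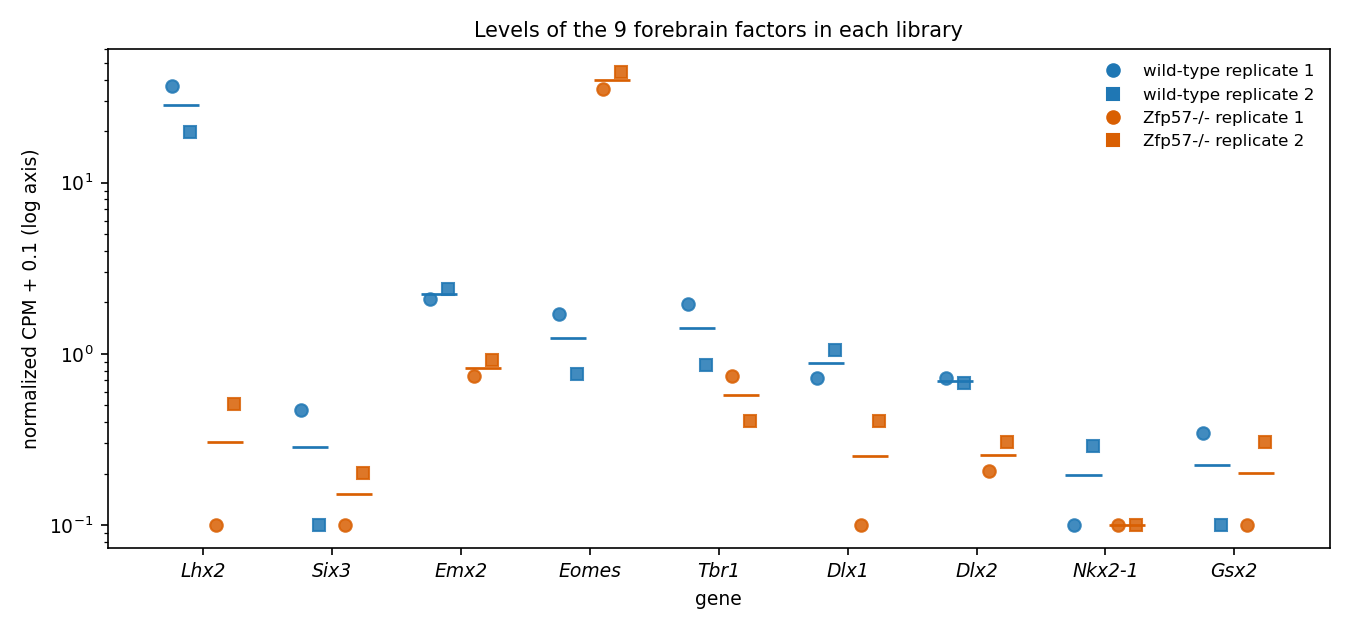
Normalized CPM plus 0.1, on a log axis, for each of the 9 factors in each library. Blue marks wild-type and orange Zfp57-/- libraries, circles replicate 1 and squares replicate 2, and short lines the group means. Lhx2 sits at 36.8 and 19.7 CPM in wild-type and at most 0.409 CPM in Zfp57-/- libraries, Eomes shows the opposite order, and the other 7 factors stay under 3 CPM.

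Lhx2, a LIM homeodomain factor needed for the cortex and the eye, lies on chromosome 2 at 38339281 to 38369733 (GRCm38, plus strand). It had 297 and 206 wild-type and 0 and 4 mutant counts. Whether these counts came from forebrain cells was not tested. Both wild-type values lay far above both mutant values. The mean level was 28.2 ± 12.1 CPM in wild-type and 0.204 ± 0.289 CPM in Zfp57-/- cells (SD, n = 2 each), a log2 fold change of -6.98 (SE 0.65, edgeR adjusted p = 5.7e-05). With so few mutant counts the ratio is better read with its counting interval: the wild-type rate was 129 times the mutant rate, with a 95% interval of 50.3 to 477 that covers counting error only. Opposite-strand transcripts that overlap Lhx2 never exceeded 2 counts in a library, and the strand was used in counting. The nearest tested genes on either side, Dennd1a (log2 fold change -0.68, adjusted p = 0.0600) and Nek6 (-0.48, adjusted p = 0.104), were not called.

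Six3, which acts with Lhx2 in the early forebrain and eye field, had 3 and 0 wild-type and 0 and 1 mutant counts. Neither group exceeded 3 counts in a library, so no fold change is given, and a difference was not detectable at this depth. Six3os1, its antisense partner, was read apart from it and had 12 and 7 wild-type and 5 and 7 mutant counts (log2 fold change -0.75, SE 0.81, adjusted p = 0.535). Transcripts on the same strand overlap Six3 in the annotation, and fragments that fit more than 1 gene may not have been counted for it.

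Emx2, a homeodomain factor of dorsal and medial pallial progenitors, had 16 and 24 wild-type and 6 and 8 mutant counts. All wild-type values lay above all mutant values. The means were 2.14 ± 0.219 and 0.731 ± 0.123 CPM (SD, n = 2 each), and the log2 fold change of -1.53 (SE 0.66) did not pass the test (adjusted p = 0.113). Counting error alone leaves a wild-type to mutant ratio of 2.94 with an interval of 1.57 to 5.85. Emx2os, transcribed from the opposite strand, had 15 and 9 wild-type and 3 and 1 mutant counts (log2 fold change -2.60, SE 0.97, adjusted p = 0.0717). The antisense RNA had the same sign as Emx2, and neither passed the threshold. Without single libraries, the log2 fold change of Emx2os ranged from -3.55 to -1.99.

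Eomes, a T-box factor, was the only member that rose. It lies on chromosome 9 at 118478212 to 118486132 (plus strand). It had 13 and 7 wild-type and 329 and 433 mutant counts, so that the lowest mutant value was far above the highest wild-type value. The means were 1.14 ± 0.666 and 39.8 ± 6.33 CPM (SD, n = 2 each), a log2 fold change of 5.17 (SE 0.38, edgeR adjusted p = 1.4e-05). The mutant rate was 37.0 times the wild-type rate, with a counting interval of 23.8 to 60.9. Golga4 and Itga9, the nearest tested genes downstream, were not called (log2 fold changes 0.15 and -0.45, adjusted p = 0.614 and 0.137). Upstream, Platr11 and 2610509F24Rik had at most 9 counts in a library and were not called either (1.24, SE 1.33, and 1.44, SE 1.11). Gm33460, which overlaps Eomes on the opposite strand, had 0 counts in wild-type and 2 and 4 in mutant libraries.

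Tbr1, the T-box factor of early-born deep-layer cortical neurons, had 15 and 8 wild-type and 6 and 3 mutant counts. It did not follow Eomes: its log2 fold change was -1.42 (SE 0.86, adjusted p = 0.249), of opposite sign to that of Eomes and not called. Psmd14, which ends 2554 bases before it on the same strand, had 769 to 1406 counts per library and was not called (log2 fold change 0.49, adjusted p = 0.0801).

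Dlx1 and Dlx2, homeodomain factors of subpallial progenitors and interneuron precursors, form a pair on opposite strands of chromosome 2, 9427 bases apart. Dlx1 had 5 and 10 wild-type and 0 and 3 mutant counts (log2 fold change -2.25, SE 1.18, adjusted p = 0.188). Dlx2 had 5 and 6 wild-type and 1 and 2 mutant counts (log2 fold change -1.84, SE 1.07, adjusted p = 0.232). Both were higher in every wild-type than in every mutant library, and neither passed the test. The counting intervals of the wild-type to mutant ratio were 1.46 to 27.7 for Dlx1 and 0.997 to 21.1 for Dlx2. Dlx1as, the antisense RNA of Dlx1, was listed at 0 in all 4 libraries.

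Nkx2-1, the hedgehog-induced factor of the medial ganglionic eminence, had 0 and 2 wild-type and 0 and 0 mutant counts. Gsx2, a factor of lateral ganglionic eminence progenitors, had 2 and 0 wild-type and 0 and 2 mutant counts. Both stayed at or under 3 counts per library, and no fold change is given.

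Per length, as RPKM (CPM per kilobase of exons), Lhx2 had the highest level of the 9 factors in wild-type cells, at 8.37 and 4.48. Emx2 followed at 0.660 and 0.763 RPKM, apart from Lhx2 above it and from Eomes below it in both libraries. Eomes, Tbr1 and Dlx2 then had mean levels of 0.274, 0.239 and 0.209 RPKM and overlapped each other from one to the next. Dlx2 lay above Dlx1 in both libraries, and below it Dlx1, Gsx2, Six3 and Nkx2-1 also overlapped. In Zfp57-/- cells, Eomes led at 8.50 and 10.65 RPKM, Emx2 was second at 0.215 and 0.272, and the remaining 7 factors lay at or below 0.123 RPKM. Lhx2 held 81.2% and 74.8% of the summed RPKM of the 9 factors in the wild-type libraries, and Eomes held 95.8% and 93.9% in the mutant libraries. The summed levels were 10.3 and 5.98 RPKM in wild-type and 8.87 and 11.3 RPKM in mutant libraries.

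**Figure D2:**
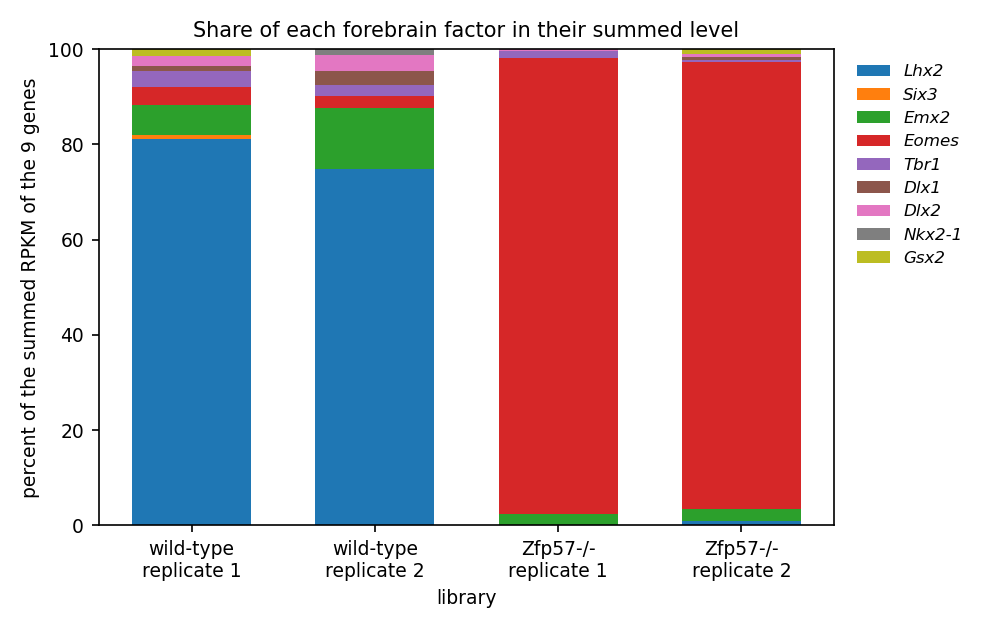
Percent of the summed RPKM of the 9 factors held by each, in each of the 4 libraries. Lhx2 fills 81.2% and 74.8% of the wild-type columns, and Eomes 95.8% and 93.9% of the Zfp57-/- columns.

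The sequences before the start sites of Lhx2 and Eomes are shown because these are the members that changed between the genotypes. The RefSeq table for GRCm38.p6 held promoters for all 9 factors, and Lhx2 had 2 of them, 10 in all. The 250 bases upstream are printed from 5′ to 3′, all on the plus strand, at chr2:38339031-38339280 and chr2:38351058-38351307 for Lhx2 and chr9:118477939-118478188 for Eomes. Capitals mark GGCCGC, 1 of 2 hexamers searched as ZFP57 motifs, on either strand.
Lhx2, first promoter: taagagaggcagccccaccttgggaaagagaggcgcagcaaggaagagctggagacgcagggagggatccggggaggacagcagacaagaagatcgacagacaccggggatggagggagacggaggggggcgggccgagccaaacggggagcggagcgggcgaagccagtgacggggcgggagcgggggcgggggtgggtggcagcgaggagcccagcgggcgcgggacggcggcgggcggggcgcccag
Lhx2, second promoter: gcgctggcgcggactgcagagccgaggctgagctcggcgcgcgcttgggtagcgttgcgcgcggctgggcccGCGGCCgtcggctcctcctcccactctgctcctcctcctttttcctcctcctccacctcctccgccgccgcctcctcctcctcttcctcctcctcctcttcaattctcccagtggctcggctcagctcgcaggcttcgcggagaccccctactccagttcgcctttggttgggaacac
Eomes: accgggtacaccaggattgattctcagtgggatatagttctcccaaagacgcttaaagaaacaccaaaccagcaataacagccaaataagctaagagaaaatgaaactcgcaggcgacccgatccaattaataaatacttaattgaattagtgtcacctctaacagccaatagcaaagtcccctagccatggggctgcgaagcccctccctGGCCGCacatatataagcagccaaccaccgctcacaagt

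ZFP57 is a zinc finger protein that recognises the hexamer TGCCGC when its CpG is methylated. Of the 10 promoters, 1 held TGCCGC on either strand, that of Gsx2, beside 8.68% of all 32851 promoters of the same length. The variant GGCCGC was in 6 of the 10, beside 16.1% of all. The 250 bases held 25 and 24 CpG for the Lhx2 promoters, 24 for Emx2 and Dlx2, 22 for Dlx1 and 16 for Gsx2. Six3 had 10, Nkx2-1 9, Eomes 8 and Tbr1 5, beside a median of 6 and a 75th percentile of 16 over all promoters. GGCCGC consists of G and C only, and its share among promoters of like CpG content was not computed. The GLI motif GACCACCCA was in none of the 10 (0.225% of all), the T-box motif TCACACCT in none (1.12%) and the POU octamer ATGCAAAT in none (526 promoters of all). The homeodomain core TAATTA was in 1 of the 10, that of Tbr1 (4.84%). These are matches of letters in a window and were not tested as binding sites, and methylation was not analysed here.

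Other forebrain genes were read from 3 lists of 42 genes in all. The counts of these and all later lists stand beside 14.6% lower and 13% higher among all genes tested. Of 10 further genes of the early forebrain field, 7 were tested, 3 were lower, 1 was higher and 3 were not called. Otx1, an Otx factor of the forebrain and midbrain, had 80 and 54 wild-type and 3 and 1 mutant counts (log2 fold change -5.07, SE 0.71, adjusted p = 0.00067). Lhx5 (47 and 93 against 3 and 6 counts) and Sp8 (118 and 222 against 79 and 64 counts) were also lower, with log2 fold changes of -3.93 and -1.26, and Sp8 lost its call without mutant replicate 2 (adjusted p = 0.150). Otx2, the relative of Otx1 that also acts in the epiblast and the anterior visceral endoderm, was not called (-0.53, SE 0.25, adjusted p = 0.149). It had 743 and 568 wild-type and 447 and 517 mutant counts, and its log2 fold change ranged from -0.87 to -0.13 without single libraries. Hesx1, an anterior homeobox repressor, rose from 0 counts in both wild-type libraries to 39 in each mutant library, at least 12.4-fold higher against 3 counts per library.

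Of 18 further pallial genes, 17 were tested, 9 were lower, none was higher and 8 were not called, with a median log2 fold change of -3.03. Nr2f1, a nuclear receptor of caudal cortical identity, had the most counts of the list, 1057 and 859 wild-type and 50 and 39 mutant counts (log2 fold change -4.51, SE 0.31). Lhx9, a close relative of Lhx2, had 720 and 655 wild-type and 13 and 10 mutant counts (-5.96, SE 0.32), of the same sign as Lhx2. Pax6, the factor of dorsal progenitors, had 229 and 290 against 37 and 28 counts (-3.03, SE 0.29), and the proneural Neurog2 113 and 174 against 4 and 4 (-5.15, SE 0.44). The roof and hem ligand Wnt3a had 200 and 189 against 2 and 6 counts (-5.63, SE 0.47). Lmx1a, a roof plate factor, had 258 and 268 against 137 and 222 counts and was not called (-0.62, SE 0.27, adjusted p = 0.113). Without single libraries, its log2 fold change ranged from -0.96 to -0.33. Many of these genes are also expressed outside the forebrain, in the hindbrain and spinal cord.

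Of 14 further subpallial genes, 11 were tested, 4 were lower, 1 was higher and 6 were not called, with a median of -1.90. Among the lower genes were Isl1, a factor of striatal and motor neurons (103 and 154 wild-type against 33 and 37 mutant counts), Gad2, an enzyme of GABA synthesis (50 and 39 against 2 and 5), and Gsx1, a relative of Gsx2 (23 and 26 against 0 and 2), with log2 fold changes of -1.90, -3.71 and -4.51, and Gsx1 lost its call without mutant replicate 1 (adjusted p = 0.0661). Olig2, a ventral progenitor and oligodendrocyte factor, was the 1 gene that was higher, with 18 and 19 wild-type and 59 and 67 mutant counts (1.71, SE 0.44, adjusted p = 0.0174). Its call was lost without either mutant library (adjusted p = 0.145 and 0.190) and with Actb as the scale (adjusted p = 0.473). Lhx6, of migrating interneurons, had 20 and 47 against 46 and 50 counts and was not called (0.52, SE 0.46). Of the 14 subpallial genes, 3 had at most 3 counts in each wild-type library and 7 in each mutant library, and of the 18 pallial genes 0 and 3 did.

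**Figure D3:**
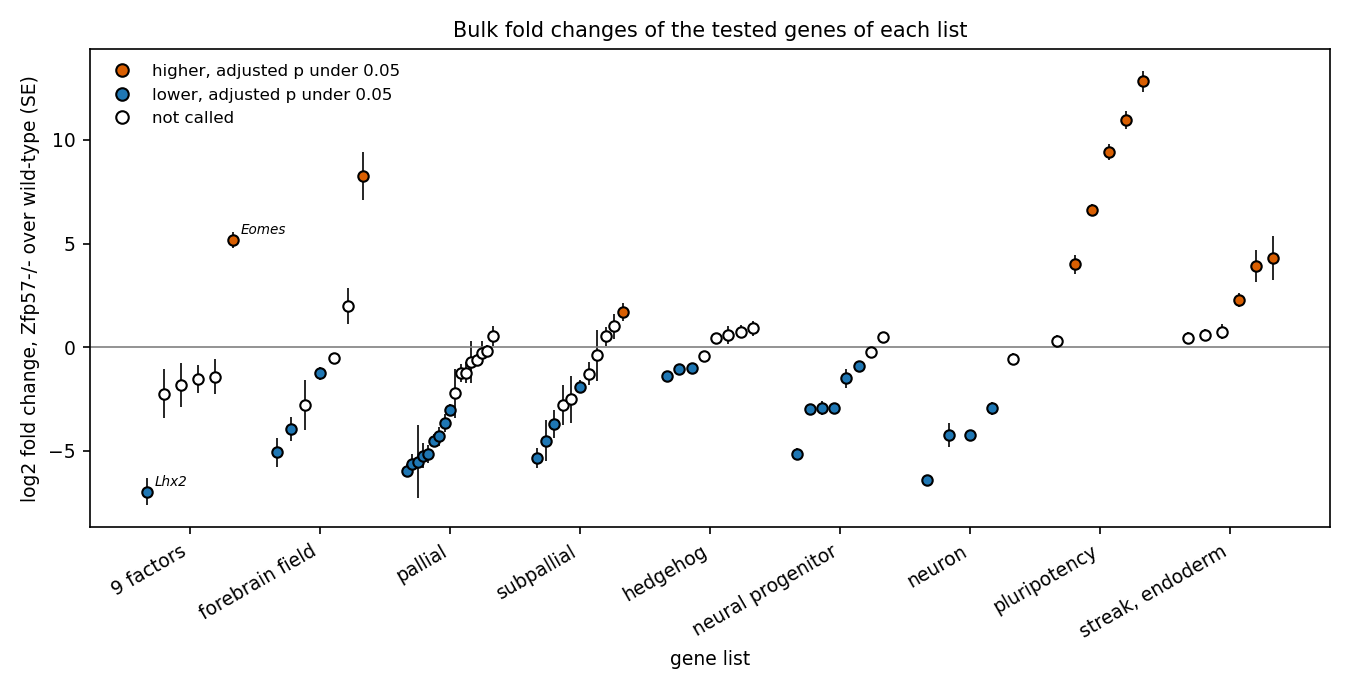
Log2 fold change, Zfp57-/- over wild-type, with its SE, for each tested gene of the 9 factors and 8 further lists. Filled blue points were lower and filled orange points higher at an adjusted p under 0.05, and open points were not called. Lhx2 and Eomes lie at -6.98 and 5.17, and the other 4 tested factors between -2.25 and -1.42.

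The hedgehog pathway, which cyclopamine blocks, was read from 8 genes, all tested. Of these 3 were lower and none higher, with a median of 0.01, where 14.6% of all genes tested were lower and 13% higher. Blocking on replicate number made 2 of them higher. Fits that left out 1 wild-type library made some higher too, but took no spread from wild-type cells. Smo, the target of cyclopamine, had 1123 and 1702 wild-type and 645 and 812 mutant counts (log2 fold change -0.99, SE 0.20, adjusted p = 0.0054). Gli3, the main repressor of the pathway in the dorsal forebrain, had 1963 and 2135 against 834 and 802 counts (-1.38, SE 0.20), and Hhip, a ligand-binding inhibitor, 167 and 202 against 88 and 95 (-1.06, SE 0.25). Without mutant replicate 1, Smo and Hhip lost their calls (adjusted p = 0.155 and 0.156), and Hhip also did without mutant replicate 2 (adjusted p = 0.132). The transcriptional targets Ptch1 (1123 and 1042 against 851 and 870 counts) and Gli1 (86 and 67 against 132 and 141 counts) were not called. Without single libraries, the log2 fold change of Ptch1 ranged from -0.63 to -0.17. All 4 cultures had cyclopamine, and no culture without it was analysed here.

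The levels of genes of other cell types moved with the genotypes as well. Of 8 neural progenitor genes 6 were lower and none higher, and of 5 neuronal genes 4 were lower and none higher. Sox2, a progenitor gene that was not called, had log2 fold changes of 0.37 to 0.60 without single libraries. The summed level of the neuronal genes was 1286 and 1622 CPM in wild-type and 199 and 154 CPM in mutant libraries. Of 6 pluripotency genes 5 were higher, with a summed level of 64.5 and 141 CPM in wild-type and 1020 and 964 CPM in mutant libraries, and Nanog rose from 0 counts in both wild-type libraries to 903 and 938. The part of these differences in the values of Lhx2 and Eomes was not tested.

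Eomes was read beside lists for its other sites of expression. Of 6 primitive streak and endoderm genes, 3 were higher and 3 not called. T, the Brachyury gene of the streak, had 117 and 345 wild-type and 985 and 1215 mutant counts (log2 fold change 2.27, SE 0.33, adjusted p = 0.00086). Gsc had 3 and 1 against 30 and 37 counts (3.91, SE 0.78) and Mixl1 1 and 1 against 8 and 38 (4.30, SE 1.08). Both lost their calls with Actb as the scale (adjusted p = 0.0674 and 0.0613), and Mixl1 without mutant replicate 2 (adjusted p = 0.210). Sox17, Foxa2 and Lhx1, which also mark definitive endoderm and axial mesoderm, were not called. Sox17 had 589 and 1479 wild-type and 1269 and 1784 mutant counts, Foxa2 173 and 520 against 444 and 707 and Lhx1 102 and 118 against 125 and 185. Blocking on replicate number or leaving low counts unfiltered called 5 of the 6 genes, with Sox17 and Foxa2 higher too. Without single libraries, their log2 fold changes ranged from 0.15 to 1.12 and from 0.25 to 1.48. The summed level of the list was 122 and 235 CPM in wild-type and 307 and 405 CPM in mutant libraries.

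Of 4 trophoblast genes, 3 were tested, 2 were higher and 1 was not called. Tfap2c had 42 and 134 wild-type and 288 and 239 mutant counts (adjusted p = 0.0109), and Gata3 10 and 17 against 44 and 38 (1.57, SE 0.52, adjusted p = 0.0495). Gata3 lost its call with DESeq2 (adjusted p = 0.0902) and without either mutant library (adjusted p = 0.370 and 0.219), and Tfap2c with Actb as the scale (adjusted p = 0.171). Cdx2, a defining gene of this lineage, had 27 and 205 against 53 and 67 counts and was not called. Its log2 fold change was -1.67 without wild-type replicate 1, the opposite direction to Tfap2c and Gata3, and 0.90 without wild-type replicate 2. Elf5, another defining gene, never exceeded 2 counts in a library. The summed trophoblast level was 9.78 and 34.2 CPM in wild-type and 41.5 and 35.4 CPM in mutant libraries.

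**Figure D4:**
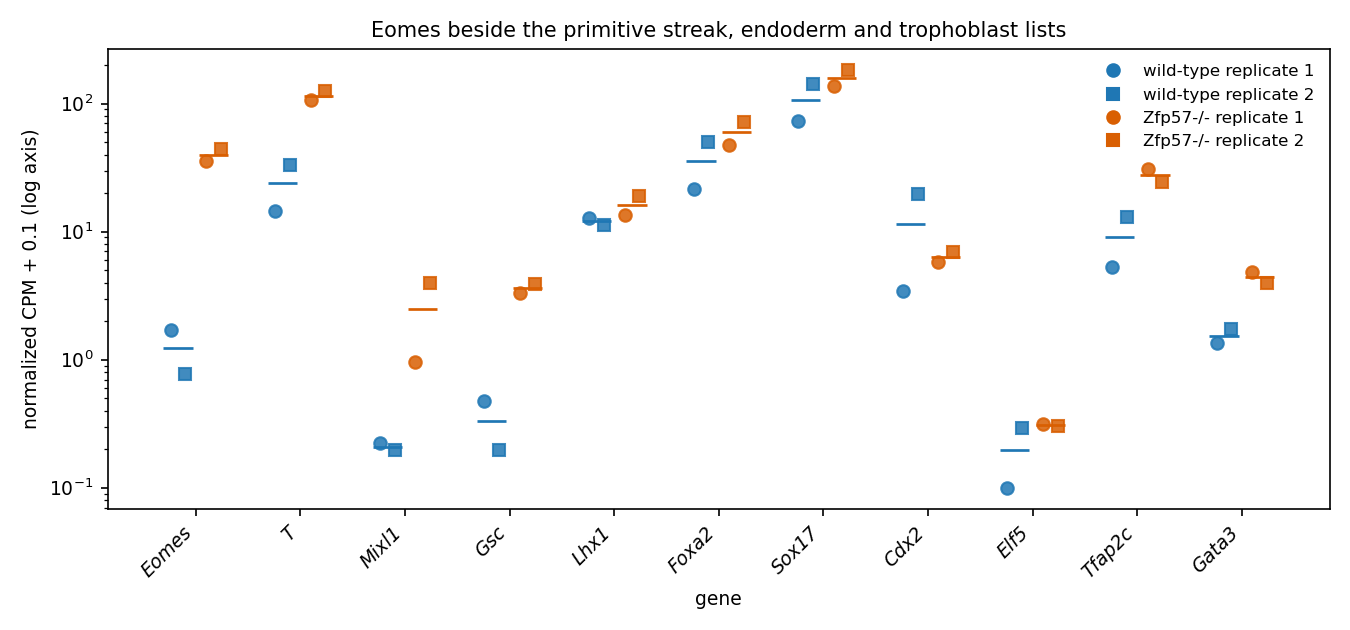
Normalized CPM plus 0.1, on a log axis, for Eomes and the genes of the streak, endoderm and trophoblast lists in each library (blue, wild-type, and orange, Zfp57-/-, circles replicate 1, squares replicate 2, lines group means). Eomes, T, Mixl1, Gsc, Tfap2c and Gata3 were higher in Zfp57-/- cells at an adjusted p under 0.05, and Cdx2 spans a wide range between the wild-type replicates.

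Short lists for other tissues that use members or their relatives were near their floors or mixed. For thyroid and lung, where Nkx2-1 is also expressed, 4 of 6 genes were tested, with Pax8 lower (18 and 17 against 1 and 5 counts) and Hhex higher (7 and 18 against 103 and 99), while Sftpc was at 0 and Sftpb at 1 count or fewer in every library. For neural crest and branchial arches, where Dlx genes act, 1 of 5 genes was called, Twist1, with 130 and 188 against 83 and 64 counts (log2 fold change -1.14). Of 3 eye genes 2 were tested and Pax2 was lower (14 and 9 against 1 and 1 counts). Of 2 urogenital genes, where Emx2 acts, Wt1 was higher (18 and 11 against 44 and 52 counts, adjusted p = 0.0479), and Osr1 was not called. Pax8, Twist1, Pax2 and Wt1 each lost their calls without mutant replicate 1 (adjusted p = 0.383, 0.0652, 0.167 and 0.206) and without mutant replicate 2 (adjusted p = 0.0764, 0.232, 0.167 and 0.281). With DESeq2, Pax8, Pax2 and Wt1 did so too (adjusted p = 0.0952, 0.0880 and 0.0669). Without wild-type replicate 2, the log2 fold changes of Dlx3 and Hand2, which were not called, were -2.04 and -1.98.

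The pattern of each of the 3 members with at least 50 counts was compared with 14910 other genes by the root mean square difference of log2 CPM, centred per gene, over the 4 libraries. Nearest to Lhx2 were Gdf7, a roof plate ligand (204 and 117 counts in wild-type, 0 and 2 in mutant libraries, difference 0.295), and Pappa2 (360 and 248 against 2 and 6, 0.304), and 0 genes lay within 0.2. Nearest to Eomes were Zfp296 (3 and 0 against 101 and 119 counts, 0.161) and Fam178b (2 and 1 against 91 and 107, 0.194), the 2 genes within 0.2. Nearest to Emx2 were Tspan33 (0.0226) and Mkx (0.0286), but 400 genes lay within 0.2, so that its pattern was a common one.

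The allele-specific table separates fragments of the maternal JF1 and paternal B6 chromosomes, and addresses whether a member was read from 1 or both of them. Lhx2 had 52 JF1 and 38 B6 reads in wild-type replicate 1 and 27 and 28 in replicate 2. Its allelic ratio, JF1/(JF1 + B6), was 0.578 (95% Wilson interval 0.475 to 0.675) and 0.491 (0.364 to 0.619), a mean of 0.534 ± 0.061 (SD, n = 2), beside a median of 0.492 over the 15 nearest genes. In mutant libraries Lhx2 had 0 allelic reads, so no ratio could be formed. Eomes had 68 JF1 and 73 B6 reads in mutant replicate 1 and 98 and 90 in replicate 2, ratios of 0.482 (0.401 to 0.564) and 0.521 (0.450 to 0.592), a mean of 0.502 ± 0.028 (SD, n = 2), beside 0.491 over its nearest genes. In wild-type libraries Eomes had 6 and 3 allelic reads, too few for a ratio to be read. Thus the wild-type reads of Lhx2 and the mutant reads of Eomes came from both alleles, with intervals that include 0.5.

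**Figure D5:**
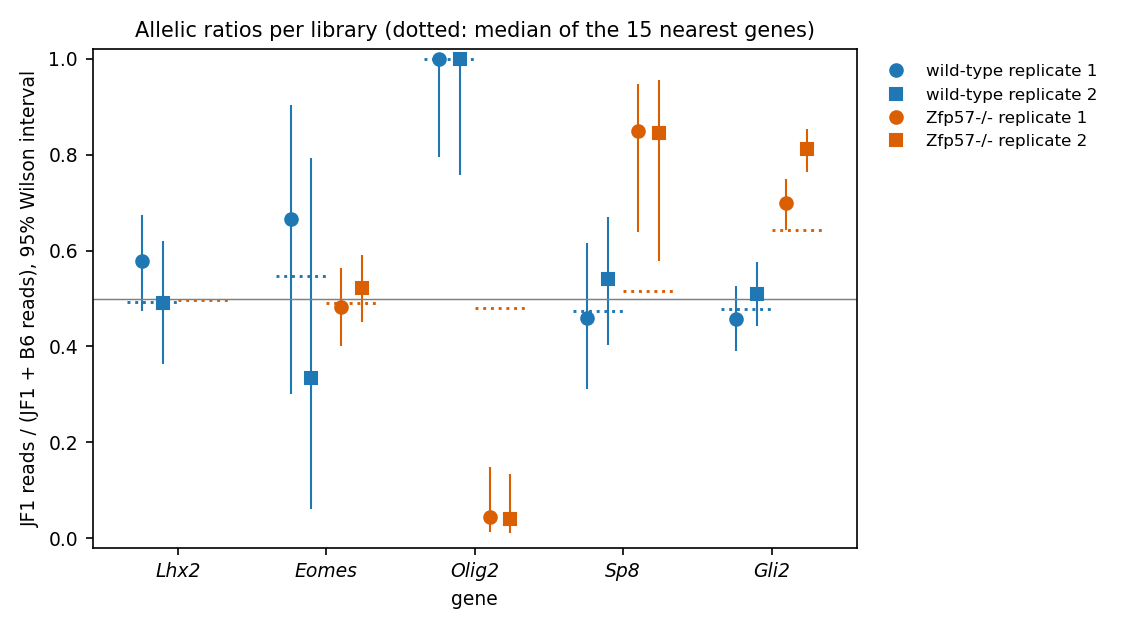
JF1 share of allelic reads per library with 95% Wilson intervals for Lhx2, Eomes and the 3 further genes with a genotype-by-allele difference (blue, wild-type, and orange, Zfp57-/-, circles replicate 1, squares replicate 2), with the median of the 15 nearest genes dotted. The points of Lhx2 in wild-type and of Eomes in Zfp57-/- libraries lie near 0.5, Lhx2 has no mutant point, and Olig2 moves from 1.00 to 0.042.

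Among the other members, Tbr1 had 1 to 6 allelic reads per library, Dlx1 and Dlx2 at most 5, Nkx2-1 and Gsx2 at most 2, and Six3 and Emx2 none. In the contrast of the allele term between genotypes, 1 of the 9 members, Lhx2, met the read minimum of 10 normalized allelic counts in both wild-type libraries, and its contrast was undetermined because its mutant libraries had 0 reads. Thus 0 members were called by edgeR, where 14.5% of 10977 tested genes were, and 0 had an unadjusted p under 0.05. DESeq2 called 0 as well. Of the 50 other forebrain and hedgehog genes 29 were tested and 3 called, 10.3%. These were Olig2, Sp8 and Gli2, with contrasts of -11.2, 2.41 and 1.72 on the log2 scale (adjusted p = 1.1e-11, 0.0318 and 1.7e-08), and Sp8 lost its call with DESeq2 (adjusted p = 0.413) and without any single library (adjusted p = 0.0510 to 0.248). Neither allele of any member was shown to differ, or not to differ, between the genotypes.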

How the data were processed

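Paired-end reads had been trimmed (Trimmomatic 0.36) and mapped with STAR 2.5.4a to GRCm38 by the authors, who deposited, per gene, the raw count of fragments from featureCounts (Subread 1.6.0), with strand used. In a second deposited table they gave a count per gene for JF1 and B6 reads, split at strain variants. Neither table is normalized. Of 55602 bulk identifiers, 54721 had a symbol in GENCODE vM21.

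Groups came from the sample titles. Counts were scaled by TMM in edgeR 4.0.16 (R 4.3.3), and genes with more than 8 counts over the 4 libraries were compared by its robust quasi-likelihood test with Benjamini-Hochberg adjustment (threshold 0.05). DESeq2 1.42.0 was an alternative. The allele columns of autosomal genes were fitted with library terms and, in each genotype, a JF1 effect, and the JF1 effects were compared. RPKM, Wilson intervals and exact ratio intervals (95%, counting error only) were computed with Python 3.11.15, pandas 2.3.3 and scipy 1.17.1, and figures with matplotlib 3.10.9. The paper's methods call the replicates biological duplicates, and the labels name no pairing. The tests were checked on simulated data. Fold changes are Zfp57-/- over wild-type.

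The members and lists were chosen with earlier results of these data known. Named are the members, the 4 genes of each list with the highest mean CPM, antisense partners, genes behind counts of 5 or fewer, the 2 nearest patterns per member, and Zfp57. Alternatives were other tests, scalings, filters, read minimums, the replicate block, and each library left out. Some genes of the lists are counted in them but are not reported here by name.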

Additional observations from a re-analysis of the deposited data

Results flagged for a closer look

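No member was flagged. Of 29 tested forebrain and hedgehog genes read beside the members, 3 (10.3%) had an allelic ratio that differed between the genotypes in the edgeR contrast, below the 14.5% of all tested genes that did, and all 3 were measured with 2 replicates per genotype.

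Olig2 had 15 and 12 JF1 and 0 B6 reads in the wild-type libraries, and 2 and 2 JF1 beside 43 and 48 B6 reads in the mutant libraries, a contrast of -11.2 on the log2 scale (adjusted p = 1.1e-11). The median ratio of its 15 nearest genes on chromosome 16 was 1.00 in wild-type and 0.481 in mutant cells. The JF1 bias in wild-type cells was thus shared by the genes around Olig2, and the B6 bias in mutant cells was not.

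Sp8 on chromosome 12 had a mean ratio of 0.500 in wild-type and 0.848 in mutant cells, a contrast of 2.41 (adjusted p = 0.0318), beside 0.473 and 0.515 for its nearest genes. It rested on 20 and 13 mutant reads, and it was lost with DESeq2 (adjusted p = 0.413) and without any single library (adjusted p = 0.0510 to 0.248).

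Gli2 on chromosome 1 had a mean ratio of 0.483 in wild-type and 0.756 in mutant cells, a contrast of 1.72 (adjusted p = 1.7e-08). The ratios of its nearest genes also rose, from a median of 0.478 to 0.644. The part of the surrounding segment in these ratios was not tested.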

How the results depend on the processing

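The calls of the 9 members did not depend on any alternative run: Lhx2 was the 1 member lower and Eomes the 1 member higher in each, and their log2 fold changes ranged from -11.0 to -6.05 and from 4.42 to 5.84. The value of -11.0 comes from the fit without mutant replicate 2, where Lhx2 had 0 mutant counts, and is no bound. Emx2, Tbr1, Dlx1 and Dlx2 were called in none, and Tbr1 and other genes under a filter or with a library left out were at times not tested. No member had a genotype-by-allele difference under any of the 8 alternatives. This is no sign of stability, since Lhx2, the 1 member tested in the main fit, had 0 mutant allelic reads and an undetermined contrast. The alternatives could not test the ratios and shares of Lhx2 and Eomes. With 2 replicates, leaving out 1 or pooling reads always moves the mean by less than the SD. Shares in TPM, a rescaling of RPKM within each library, are the same by construction.

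Of the 42 other forebrain genes, 16 were lower (14 to 21 without single libraries) and 2 higher. The higher count was 1 with Actb as the scale, and 1 to 3 without single libraries. Actb as the scale moved the median of all genes to -0.68, since wild-type replicate 1 had 14634 Actb counts and the others 35070 to 39257, and left 3480 genes called instead of 5522, with 486 higher instead of 2607. On that scale log2 fold changes turned for Lhx6 (-0.013), Gli2 (-0.27), Sox2 (-0.17), Klf4 (-0.23) and Lhx1 (-0.27), none of which was called. Without single libraries, log2 fold changes of genes not called in the full fit took both signs, from -0.20 to 0.94 for Klf4, -1.67 to 0.90 for Cdx2, -2.74 to 0.47 for Hand2, -0.77 to 1.41 for Sox10, -0.55 to 0.10 for Mitf and -0.35 to 0.29 for Osr1. Of these, Klf4 stood at 0.94 and Hand2 at -1.98 without wild-type replicate 2, and Cdx2 at -1.67 without wild-type replicate 1. Their cause was not tested. Zfp57 lost its call without mutant replicate 2 (adjusted p = 0.0719).

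By the labels, samples with the same replicate number share only that number, and whether they shared a batch is not known. Their deviations correlated at 0.15 over 14911 genes. A fit blocked on that number called 6984 genes instead of 5522, and the member calls stayed at 1 lower and 1 higher. Of the 81 named genes with a test, the block brought 6 past the threshold, Emx2os (adjusted p = 0.0459), Lmx1a (0.0380), Stmn2 (0.0377), Sox17 (0.0131), Foxa2 (0.00082) and Dlx3 (0.0256), took none below it, and turned the uncalled Sox10 to 0.10. The hedgehog genes called higher went from 0 to 2 with it. In the allele contrast DESeq2 called 833 genes and edgeR 1588. Over all genes, 2831 to 9947 were called without single libraries, most without wild-type replicate 2.

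With 2 replicates of 1 line per genotype, p-values cover the spread between cultures only. A fit without 1 library takes its spread from the 2 libraries of the other genotype alone. Calls gained or lost there are thus not like those of the full fit. The wild-type replicates lay further apart than the mutant ones (chi-square per gene against counting error, 31.3 and 6.64). Members with under 30 counts in all give wide intervals. The counting interval of Dlx1 (1.46 to 27.7, wild-type to mutant) lay above 1, but its test over 2 replicates per genotype did not pass. For Six3, Nkx2-1 and Gsx2, a difference was not detectable at this depth.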

Other observations

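Genes of the dorsal hindbrain, midbrain and roof plate, chosen after their values were seen, were lower in mutant cells, as Lhx2 was. Lhx9, the close relative of Lhx2, was lower too (720 and 655 wild-type against 13 and 10 mutant counts). Which region of the neural tube the Lhx2 counts came from was not tested. Atoh1, the factor of the rhombic lip, had 270 and 423 wild-type and 0 and 2 mutant counts (36.9 ± 4.91 against 0.102 ± 0.145 CPM, SD, n = 2 each). Barhl1, which acts downstream of Atoh1, had 158 and 215 counts against 0 and 0, at least 63.8-fold lower in mutant cells against 3 counts per library. Wnt1 (341 and 375 against 0 and 1), Pax7 (202 and 250 against 7 and 10) and En2 (142 and 430 against 18 and 26), genes of the midbrain, the hindbrain and dorsal neural tube, had the same direction.

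Genes of Nodal signalling, also chosen after their values were seen, lay on the side of Eomes. Nodal had 3 and 6 wild-type and 308 and 341 mutant counts (0.472 ± 0.142 against 34.0 ± 1.27 CPM, SD, n = 2 each). Its co-receptor gene Tdgf1 had 0 and 2 against 2301 and 2301 counts, and is also among the 6 pluripotency genes counted above. Its transcriptional partner Foxh1 had 4 and 2 against 299 and 329, and its targets Lefty2 and Cer1 2 and 0 against 301 and 235 and 1 and 1 against 148 and 177. The part of pluripotent cells in these values was not tested.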
